A study of Glycine max with 23 samples.

Results

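In a table of soybean small RNAs, 92 of 2839 distinct sequences were 23 or 24 nt long, carried no miRNA family name and reached at least 5 TP5M in at least 1 library. TP5M is the deposited level unit, reads (tags) per 5000000 tags of a library. A sequence counted as unnamed when no table entry for it had a gma-MIR or gso-MIR name or a numbered earlier miRNA name; entries of the same sequence were merged by their maximum. Of the 92 sequences, 62 had 24 nt and 30 had 23 nt, and they took up 122 of the table's 3933 entries. Without the limit on level, 548 unnamed sequences had 23 or 24 nt. The sequences were thus selected on their highest TP5M value, so how high they are is a description and was not tested.

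The libraries came from Glycine max cv. Williams 82, an inbred reference cultivar, grown in Beijing with no treatment. Small RNAs of 15 to 30 nt were gel-purified from total RNA and sequenced in 23 libraries, 1 for each organ and stage. Developing seeds were sampled at around 6, 8 and 10 weeks (3 libraries) and pods at weeks 1, 2 and 3, when seed development begins (3 libraries). Flowers gave 5 libraries, namely a flower bud at bud differentiation, a bud before flowering, open flowers (florescence), flowers of day 5 after flowering and open flowers of a different date. Leaves gave 6 libraries, namely a new leaf at germination, an old and a new leaf at the trefoil stage (first compound leaf), an old and a new leaf at flower bud differentiation and a senescent leaf. The other 6 libraries were 2 stems and 2 cotyledons (germination and trefoil stage), 1 root (germination) and 1 leaf bud (flower bud differentiation). No stage was replicated, so an SD or p over the libraries of an organ measures the spread between its stages and not between plants.

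In plants, small RNAs of 24 nt are mostly cut by DICER-LIKE 3 from double-stranded precursors of transposons and repeats. Those with a 5′ adenine are loaded preferentially into AGO4-type Argonaute proteins, which guide DNA methylation, while most miRNAs are cut by DICER-LIKE 1 from a hairpin, have 21 or 22 nt and begin with uracil, the base preferred by AGO1. A miRNA hairpin also releases an opposite-arm strand and cut products that are shifted or longer by a base or more. Developing seeds are known for abundant 24 nt small RNAs. All sequences of the table were assigned to hairpins by the authors, and the hairpins of the 92 sequences were 71 to 365 nt long (median 131.5).

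The sequences on which the results turn are given in sets, written as DNA letters in the direction 5′ to 3′, with bases 2 to 8, the seed by which a miRNA first pairs with its target, in capitals. The first set shows how unnamed 23 nt sequences differ from named members of the miR169 family, which targets NF-YA transcription factors.
M3199-5p: tTGAGCCAaggatgacttgccgg
M5501-5p: tTGAGCCAaggatgacttgccga
miR169d: tGAGCCAAggatgacttgccggt
M2828-5p: tAGCCAAGgatgacttgcctagc
M2826-5p: tAGCCAAGgatgacttgcctagt
miR169a: cAGCCAAGgatgacttgccgg
M4832-5p: tGAGCCAGgatggcttgccggca
miR169o: tGAGCCAGgatggcttgccggc

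M3199-5p and M5501-5p share the seed TGAGCCA, start 1 base before miR169d (23 nt) and so have another seed than it. M2828-5p and M2826-5p share the seed AGCCAAG, which is also that of the 21 nt miR169a. They share 18 nt in a row with miR169a and have a different first base. Their 3′ end differs as well, with 4 bases after the shared run in place of the 2 of miR169a. M4832-5p is miR169o (22 nt) with 1 more base at its 3′ end and keeps its seed. These were the 5 most abundant sequences that share at least 18 nt in a row with a named miRNA.

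The second set pairs unnamed 23 nt sequences with the strand from the opposite arm of their hairpin, because the levels of both arms are set side by side below.
M5274-3p: gCTCACCActctttctgtcggtt
miR156k/n/o: tTGACAGAagagagtgagcac
M1889-3p: aGTGAATGatgcgggagacaaat
M1889-5p: tAGCTGCCgactcattcatcca
M3181-3p: cGGAAGTAactttgggggttaac
M3181-5p: aACCCTCAaaggcttcctaga

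The third set holds sequences with no named relative in the table that differed between organs, followed by M2475-3p, a neighbour of M2476-3p with which it shares 14 nt in a row.
M2476-3p: aACTGTGAtgataattgcaagtga
M1870-5p: gCCGAGCTgagttacgccagcttg
M1230-3p: tGCGGTTTggagatgccatcgag
M2475-3p: gAACTGTGatgataactgcaagt

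The fourth set shows 24 nt sequences of which most were highest in a seed library. M3778-5p, M1992-5p, M3066-5p and M2540-5p had the highest levels among sequences at 5 TP5M or more in exactly 1 library. M3164-5p and M7896-3p, chosen after their values were seen, had higher levels in every seed than in any leaf. M2537-5p, which was highest in the week 1 pod, and M6594-3p are both arms of the same hairpin and are complementary over 20 nt in a row.
M3778-5p: aTCGGGATgctcagttcgcatggt
M1992-5p: tTACTCAAtgttggaaaggatgtg
M3066-5p: tCATTTTTttaagatctaatggtt
M2540-5p: tATTTGTGcctagactcgagcaag
M3164-5p: aTAAATCGtacggatcaagttgat
M7896-3p: aTTGATTAcactgtgttgaattca
M2537-5p: aTGTGTCAtgttctgattggatgt
M6594-3p: tTGACCAAtcagaacatgacacat

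Most of the 92 sequences were scarce. Their median highest level was 8.74 TP5M, 31 reached 10 TP5M, 16 reached 20 TP5M and 7 reached 100 TP5M. The 30 sequences of 23 nt reached a median of 12.2 TP5M, and the 62 of 24 nt a median of 7.31 TP5M. Together they made up 0.0234% to 0.239% of the TP5M that the table lists for a library, which is a part of its tags, with 119 to 894 reads. The highest value was that of M3181-3p, 620 TP5M in the week 8 seed. A read was worth 0.742 to 1.38 TP5M, since the libraries held 3.63e+06 to 6.74e+06 tags. A count of 0 in a library therefore allows a level of up to 2.22 to 4.14 TP5M (3 reads), and most of the 24 nt sequences lie within a few reads of that floor. Such floors and intervals cover counting error only.

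Few were broadly detected. At 5 TP5M or more, 42 sequences appeared in exactly 1 library, 27 in 2 to 5 libraries, 10 in 6 to 10 and 13 in more than 10. The single-library sequences comprised 35 of the 62 sequences of 24 nt and 7 of the 30 of 23 nt. None reached the limit in all 23 libraries, and M3199-5p and M5501-5p came closest with 21. Of all 1318 sequences at 5 TP5M or more somewhere, named 20 to 22 nt sequences were in all libraries in 23.6% of cases (70 of 297), unnamed 21 nt ones in 10.2% (48 of 469) and unnamed 22 nt ones in 5.43% (22 of 405).

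The limit cut through a dense range of levels. Just inside it were M0668-3p with a highest value of 5.06 TP5M, M5448-5p with 5.12 and M2983-5p with 5.15. Just outside it were M5946-5p and M7336-3p with 4.94 TP5M each and M6850-3p with 4.87.

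At their 5′ end the 92 sequences began with T in 37 cases, A in 35, G in 12 and C in 8, so that 38.0% began with A. The share was 40.3% for those of 24 nt (25 of 62) and 33.3% for those of 23 nt (10 of 30). Shares of A were lower in unnamed 21 nt (25.2%, n = 469), unnamed 22 nt (14.6%, n = 405) and named 20 to 22 nt sequences (18.2%, n = 297) at the same limit. The 17 named 23 to 24 nt sequences began with A in 47.1% of cases. Unnamed 24 nt sequences that stayed below 5 TP5M in every library began with A more often still, in 61.2% of cases (256 of 418). Thus within the unnamed 24 nt sequences the scarcer class had the larger share of A. At a limit of 10 TP5M the share of A among unnamed 23 and 24 nt sequences was 29.0% (9 of 31). Over all 2839 sequences of the table it was 28.5%. Sequences are not replicates of a condition, and these shares were not tested.

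**Figure D1:**
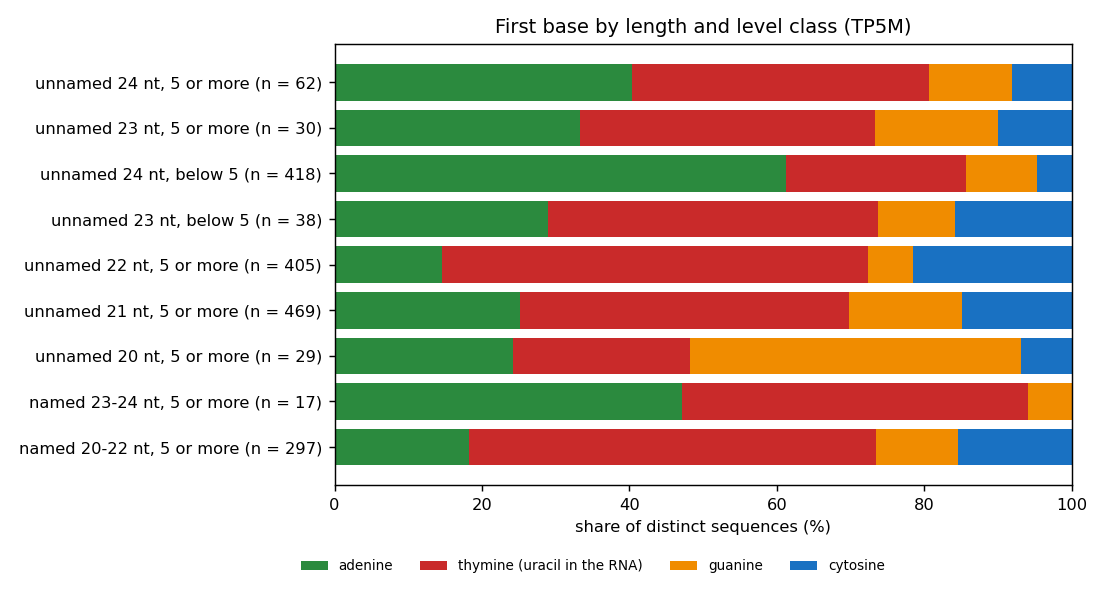
First base of distinct sequences by length and level class; each bar adds up to 100% of its class, n is the number of sequences, and 5 is the limit in TP5M. The share of adenine is 61.2% in unnamed 24 nt sequences below the limit and 14.6% in unnamed 22 nt sequences at or above it, with 40.3% in the 24 nt sequences described here.

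Their median GC content was 41.7%. Of the 92, 77 had a single locus in the table and 15 had several. M3094-5p had the most, 10 loci, followed by M1622-5p and M1992-5p with 4 each; these were all 24 nt sequences with their highest level in a seed library. Of the 122 entries, 74 lay on the 5′ arm and 48 on the 3′ arm of their hairpin. The letters TGATGA, which also form box C of snoRNAs, occurred on the given strand of 7 of the 92 sequences (7.61%), among them M2476-3p and M2475-3p, against 2.57% of all 2839 sequences. This motif was looked for after the sequences had been seen, and a match is not a site.

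Although none carried a family name, 21 of the 92 were related to a named miRNA of the table by sequence or hairpin. Of these, 10 shared at least 18 nt in a row with a named mature sequence. A further 7 lay opposite a strand that carried a name or itself had such a shared run. The last 4 came from a hairpin overlapping another that held a sequence of either kind. The other 71, of which 55 had 24 nt, had no such relation. The related sequences were the more abundant ones: those with no relation had 38.0% of the summed mean level of the 92. The opposite arm was listed for 35 of the 92, with 20 to 22 nt in 26 cases and 23 to 25 nt in 9. It had the lower mean level in 23 cases and the higher in 12.

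By their own sequence, 5 of the 15 sequences whose mean reached 5 TP5M were related to the miR169 family. M5499-3p, also among the 15, is the strand opposite M5499-5p, an unnamed sequence that shares at least 18 nt in a row with miR169d. M3199-5p (chr9:5285252-5285346, plus strand; the genome build is not given in the sources used here) averaged 46.0 TP5M over the 23 libraries and M5501-5p (chr15:14176154-14176254, plus strand) 40.4 TP5M, against 275 TP5M for miR169d. M5501-5p was below miR169d in all 23 libraries. M3199-5p was above it in 3, with 111 against 65.1 TP5M in the germination stem, 51.2 against 19.3 in the germination cotyledon and 32.3 against 24.4 in the new leaf at germination. M4832-5p averaged 5.77 TP5M, 2.03% of miR169o, and was below it in every library.

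M2828-5p (6.64 TP5M) and M2826-5p (6.09 TP5M) reached 0.206% and 0.189% of the mean of miR169a, 3222 TP5M. Their hairpins lie 6984 bp apart on the plus strand (chr8:717097-717225 for M2826, chr8:724210-724338 for M2828), and the sequences differ in their last base. In the senescent leaf miR169a was listed at 6.18 TP5M, and M2828-5p at 8.24 and M2826-5p at 9.26 TP5M were above it there and in no other library. A further group lies on chromosome 15, where M5499-3p has its hairpin 5027 bp before that of M5500-5p, which overlaps that of M5501-5p.

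M5274-3p (chr14:10664503-10664607, minus strand) is the strand opposite miR156k/n/o, from the family that represses SPL transcription factors and is known for its high level in juvenile shoots. It averaged 17.6 TP5M over all libraries and its mature partner 62.5 TP5M. In seeds of weeks 6, 8 and 10 M5274-3p had 10.8, 26.1 and 67.0 TP5M, and the partner 11.7, 47.4 and 52.5 TP5M. In the 5 flower libraries it had 0 to 0.95 TP5M, and the partner 1.24 to 15.8 TP5M. M5274-3p was below its partner in 20 libraries. The 3 exceptions were the week 10 seed, the new leaf of the trefoil stage (14.3 TP5M, partner listed at 0) and the germination cotyledon, where M5274-3p had its highest level of 114.9 TP5M and the partner was again listed at 0.

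M1889-3p (chr5:40832138-40832240, plus strand) comes from a hairpin that overlaps another with a sequence related to miR319, a family that targets TCP transcription factors. That sequence is the one named miR319a, miR319b and miR319e, or shares at least 18 nt in a row with it. Both arms were highest in the germination stem, M1889-3p with 308 TP5M and M1889-5p with 93.8 TP5M, and had 187 and 43.7 TP5M in the trefoil stage stem. M1889-3p was the higher arm in 20 libraries and M1889-5p in none. Open flowers of a different date stood apart from the other 4 flower libraries in both arms, with 1.24 TP5M against 60.9 to 160 TP5M for M1889-3p, and 0 against 32.1 to 56.9 TP5M for M1889-5p.

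M3181-3p (chr8:46852128-46852248, minus strand, and a second locus) is the strand opposite M3181-5p, which carried no family name and had a mean of 0.308 TP5M. An opposite-arm sequence of its hairpins was related to miR5037b, by name or by at least 18 nt in a row. At a mean of 96.0 TP5M M3181-3p was the most abundant of the 92 sequences and the higher arm in 21 libraries. In contrast, M0781-3p averaged 1.51 TP5M against 324 TP5M for its opposite arm M0781-5p and was lower in all 23 libraries. M0781-5p carried no family name but shares at least 18 nt in a row with miR1523a. M7235-5p and M7235-3p are both unnamed and both at 5 TP5M or more in the old cotyledon, with 104 and 5.27 TP5M there. M2537-5p averaged 4.12 TP5M and its complement M6594-3p, a 1 base shift of miR1520q, 1.43 TP5M.

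**Figure D2:**
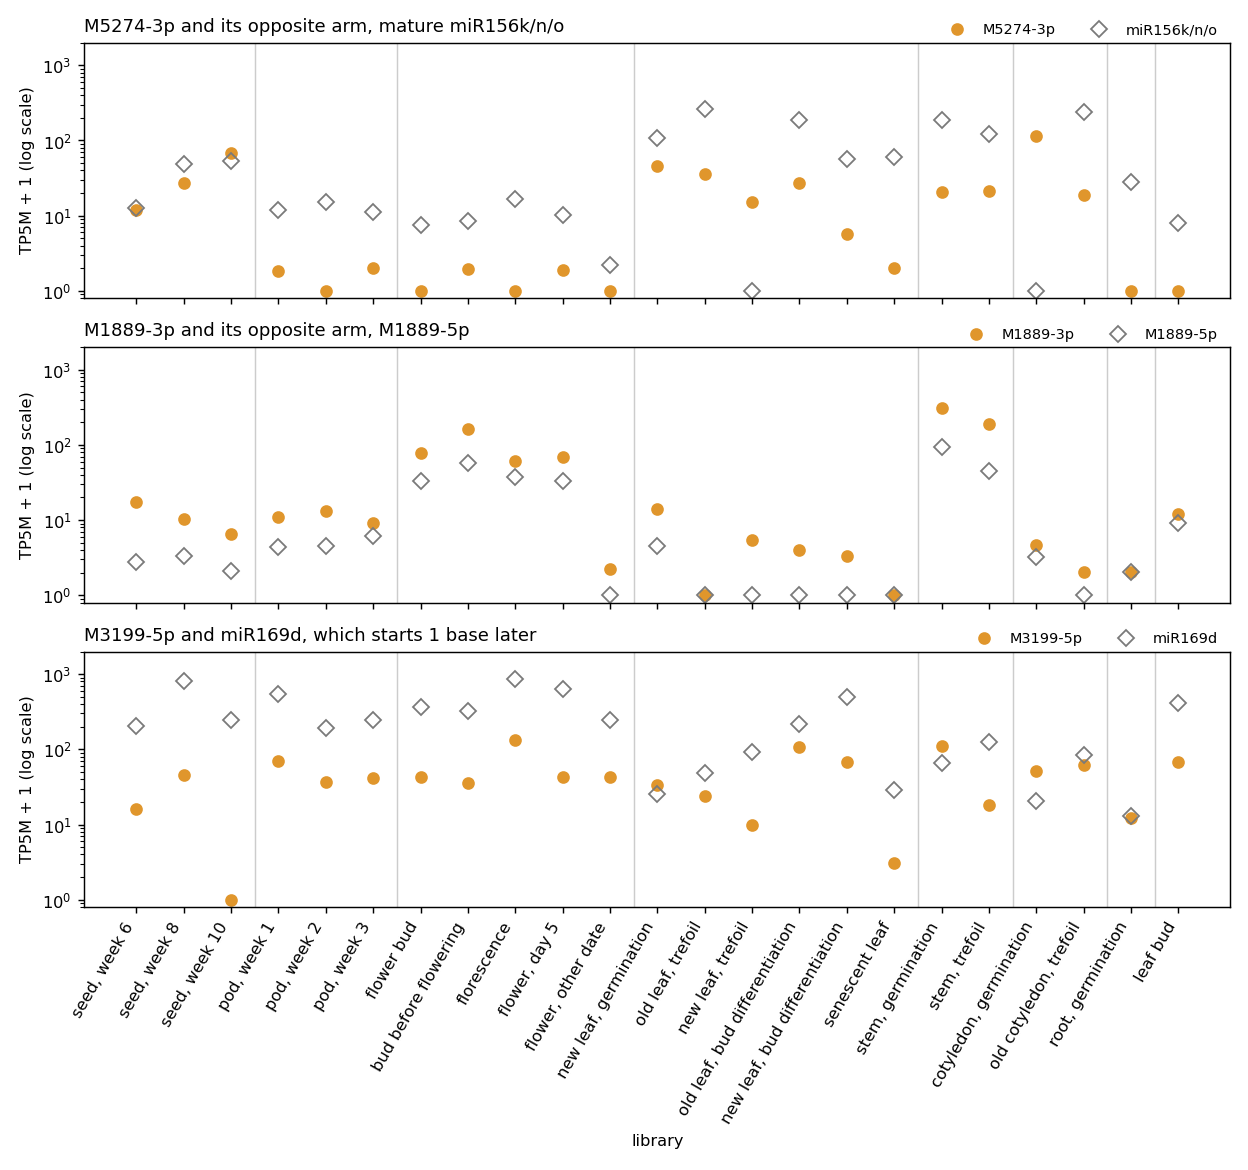
Levels of 3 of the unnamed sequences (filled) and of a related sequence (open) in each of the 23 libraries, on a log axis of TP5M + 1, with organs from left to right as seed, pod, flower, leaf, stem, cotyledon, root and leaf bud. M5274-3p lies below miR156k/n/o in 20 libraries, M1889-3p above M1889-5p in 20, and M3199-5p below miR169d in 20.

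By library, seeds at week 6 held the most of the 92 sequences. At 5 TP5M or more, 40 were present in week 6 seeds, 25 in week 8 seeds and 14 in week 10 seeds, against 18 to 21 in pods, 17 to 19 in flowers and 9 to 21 in leaves. The fewest were 7, in the root and in the germination cotyledon. At the same limit the week 6 seed had 151 named 20 to 22 nt sequences, where the 23 libraries ranged over 135 to 199, and 130 unnamed 21 nt ones, where they ranged over 85 to 242. Of the 40 in week 6 seeds, 17 reached the limit in that library alone, so this count follows in part from the selection. The week 6, 8 and 10 seed libraries had 5.56e+06, 4.22e+06 and 4.48e+06 tags, and the part of depth in these counts was not tested.

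Within the 92, the sequences highest in seeds were mostly of 24 nt. Of the 92, 33 had their highest level in a seed library, of which 31 had 24 nt, and 22 of these were highest at week 6. Leaf and flower libraries held the highest level of 17 sequences each, cotyledons of 8, stems of 6, pods and the leaf bud of 5 each and the root of 1. Of the 42 single-library sequences 17 were found in week 6 seeds, 6 in week 8 seeds and 2 in week 10 seeds, and all 25 had 24 nt. Summed, the 62 sequences of 24 nt had 433, 302 and 221 TP5M in seeds of weeks 6, 8 and 10, against 153 to 191 TP5M in pods, 117 to 166 TP5M in flowers and 31.9 to 214 TP5M in leaves. The 3 seed libraries lay above all others, the week 10 seed narrowly so, since the new leaf at bud differentiation had 214 TP5M. The 25 single-library sequences of seeds passed the limit only through a seed library. These seed counts and sums therefore follow in part from the selection and are a description.

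The 30 sequences of 23 nt did not follow this order. Their sum was highest in florescence with 852 TP5M, of which M3181-3p and M5501-5p made up most, next in week 8 seeds with 758 TP5M and next in the germination stem with 587 TP5M. Week 6 seeds had 174 TP5M of them, within the range of leaves, 90.6 to 347 TP5M.

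The 418 unnamed 24 nt sequences that missed the limit, and were therefore not picked for a high level anywhere, were also highest in seeds. Their sum was 413, 500 and 259 TP5M in seeds of weeks 6, 8 and 10, against 204 to 254 TP5M in pods, 120 to 270 TP5M in flowers and 39.1 to 182 TP5M in leaves. The week 10 seed overlapped the flowers here and the other seed libraries did not overlap any other organ. In bulk tissue, fewer cells that hold a small RNA and less of it per cell cannot be told apart.

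**Figure D3:**
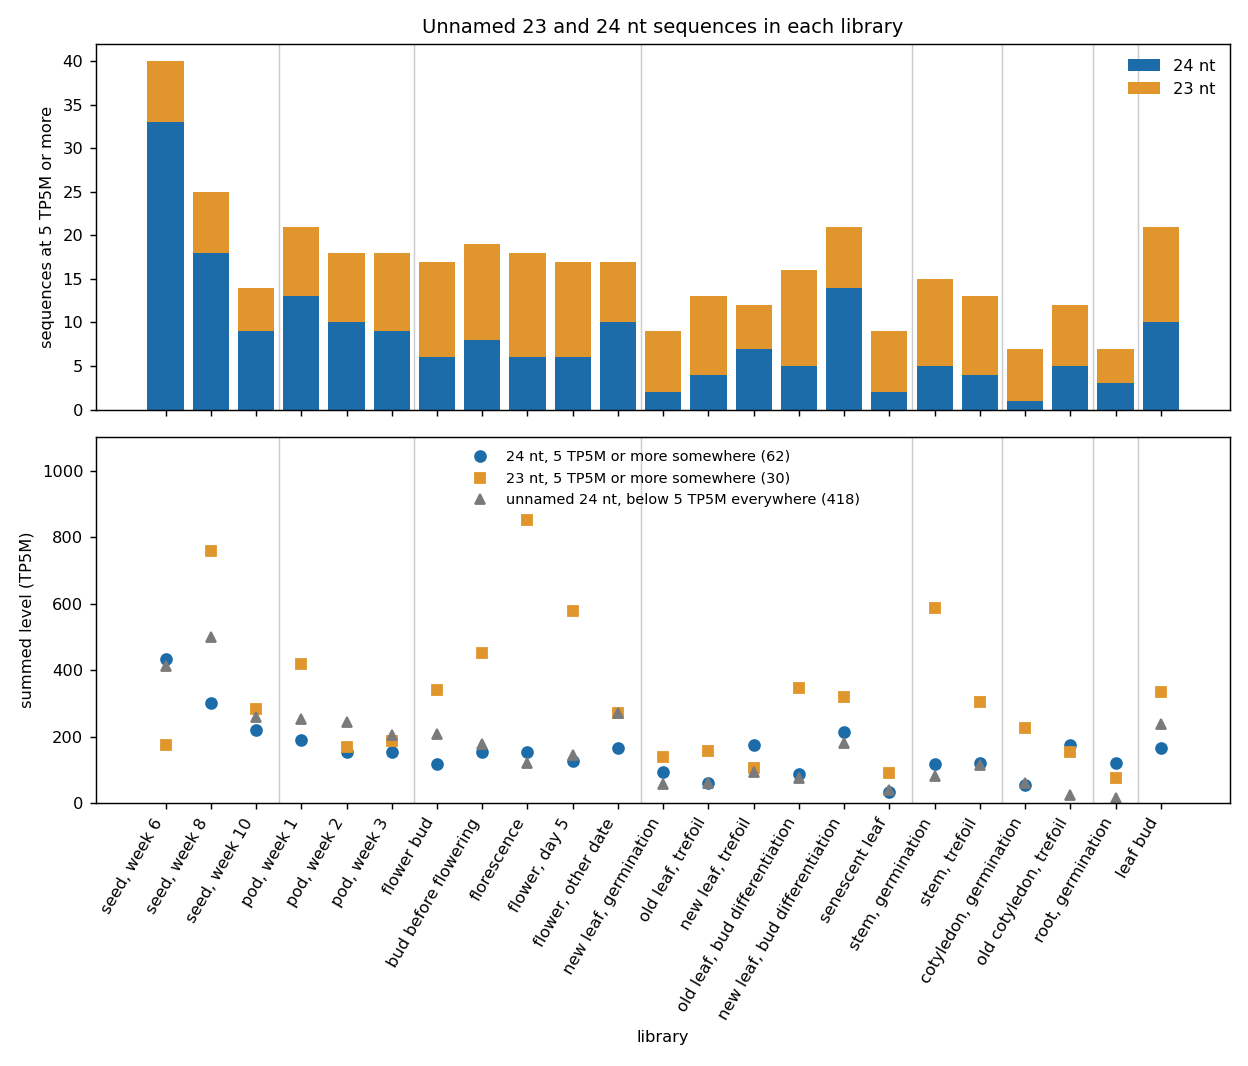
Upper panel: number of unnamed 23 and 24 nt sequences at 5 TP5M or more in each library; lower panel: summed level in TP5M of the same sequences by length, and of the 418 unnamed 24 nt sequences below the limit. Grey lines separate organs. The week 6 seed has the highest bar, 40 sequences, and the sums of the 62 sequences of 24 nt are highest in the 3 seed libraries.

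The highest single-library levels rested on few reads. M3778-5p had 18.9 TP5M in week 6 seeds, 21 reads with an exact 95% Poisson interval of 11.7 to 28.9 TP5M, and at most 4.74 TP5M elsewhere. M1992-5p had 15.6 TP5M in week 10 seeds (14 reads, 8.54 to 26.2 TP5M) and at most 1.80 TP5M elsewhere. M3066-5p had 13.5 TP5M in week 6 seeds (15 reads, 7.55 to 22.3 TP5M) and at most 3.80 TP5M elsewhere. M2540-5p was listed in seeds alone, with 9.90 TP5M at week 6 (11 reads, 4.94 to 17.7 TP5M) and 4.74 TP5M at week 8. The remaining one of the 5 highest was M0509-5p, with 9.61 TP5M in the old leaf of the trefoil stage (8 reads, 4.15 to 18.9 TP5M). It lies opposite a sequence related to miR395, a family induced by sulfate starvation, by name or by at least 18 nt in a row.

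Organ differences were tested with limma on log2(TP5M + 5) over all 595 sequences whose mean reached 5 TP5M, and p-values were adjusted by the Benjamini-Hochberg method over all of them. The pseudocount makes a log2 difference smaller than the ratio of the means for low levels. Of the 92 sequences, 15 passed that filter, 10 of 23 nt and 5 of 24 nt; the other 77 were too scarce. Among leaf, flower, pod and seed together, 6 of the 15 were called at an adjusted p below 0.05, against 39.5% of all 595. The 6 were M3181-3p, M2476-3p, M1870-5p, M1889-3p, M1230-3p and M5274-3p. TMM scaling, which assumes that most sequences do not change, moved the median difference of all 595 by −0.43 in flower minus leaf, 0.16 in pod minus flower, 0.48 in seed minus pod and 0.18 in seed minus leaf. In addition, 28 sequences of the table were above 0 only within 6 libraries (both old leaves, the new leaf at bud differentiation and the 3 pods). None of the 28 was among the 92, but M4541-3p and M5934-3p were above 0 only within these 6 libraries and the old cotyledon. A fit with a term for the 6 libraries was run beside each comparison of the 595.

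**Figure D4:**
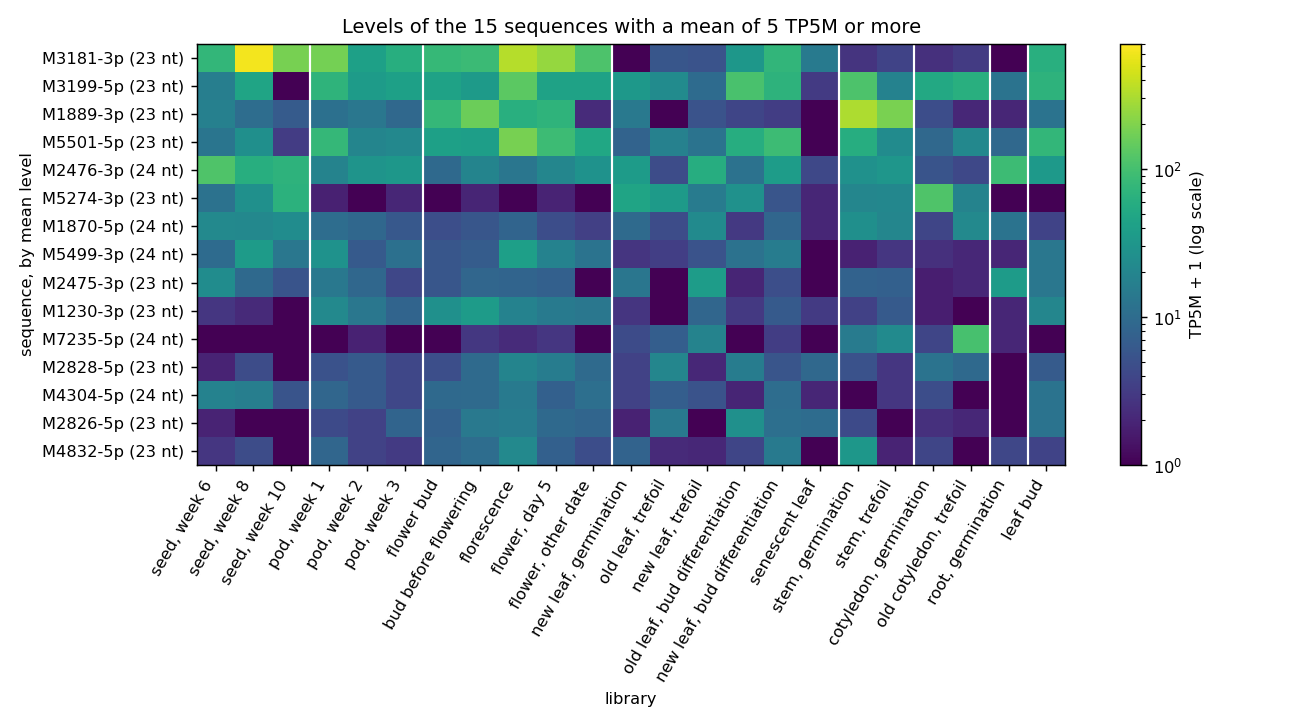
Levels of the 15 unnamed sequences whose mean reached 5 TP5M (rows, by mean) in the 23 libraries (columns, by organ, white lines between organs), as TP5M + 1 on a log color scale. M3181-3p is brightest in the week 8 seed with 620 TP5M, M1889-3p in the germination stem with 308 TP5M and M7235-5p in the old cotyledon with 104 TP5M.

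Between flower and leaf, 4 of the 15 were called, 3 higher and 1 lower in flower, against 24.9% of all sequences (126 higher, 21.2%, and 22 lower, 3.7%; 61 and 38 with TMM). The median log2 difference was 0.70 for the 15 and 0.43 for all 595. M3181-3p had 79.3, 85.4, 334, 113 and 246 TP5M in flower bud, bud before flowering, florescence, flowers of a different date and day 5, against a lowest, median and highest of 0, 9.10 and 73.6 TP5M in the 6 leaves. Every flower library lay above every leaf. It averaged 171 ± 113 TP5M in flower and 21.3 ± 28.0 TP5M in leaf (SD, n = 5 and 6), a log2 difference of 3.14 ± 0.67 (SE; adjusted p = 0.00279).

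M1889-3p had 77.4, 160, 60.9, 1.24 and 69.0 TP5M in the same order of flower libraries, against 0, 2.63 and 13.1 TP5M as lowest, median and highest of the leaves. The flowers of a different date lay among the leaves and the other 4 above them. The means were 73.8 ± 56.9 and 3.79 ± 4.86 TP5M, a log2 difference of 2.74 ± 0.59 (adjusted p = 0.00289).

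M1230-3p (chr3:19283059-19283358, minus strand) had 25.5, 35.1, 17.1, 12.4 and 13.8 TP5M in flower, against 0, 2.01 and 7.72 TP5M as lowest, median and highest in leaf. The groups did not overlap. Its means were 20.8 ± 9.50 in flower and 3.15 ± 2.85 TP5M in leaf, a log2 difference of 1.66 ± 0.30 (adjusted p = 0.000832).

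M5274-3p fell in flower, where it was listed at 0 in 3 libraries and at 0.95 and 0.92 TP5M, 1 read each, in the others, against 1.03, 20.4 and 44.5 TP5M as lowest, median and highest in leaf. The lowest leaf, the senescent one, also had 1 read. The log2 difference was −1.92 ± 0.53 (adjusted p = 0.0133; 0.0558 with the term for the 6 libraries). Of the 15 sequences, 3 had groups that did not overlap, against 9.92% of all. The 11 sequences not called had log2 differences of −0.53 to 1.67; the largest, of M5501-5p, had an adjusted p of 0.0744.

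Between pod and flower, limma called 0 of the 15, against 2.02% of all sequences (4 higher, 0.672%, and 8 lower, 1.34%; 6 and 5 with TMM), and 1 of the 15 had an unadjusted p below 0.05. edgeR called 0 as well. That sequence, M1889-3p, averaged 10.2 ± 2.11 TP5M in pod (n = 3) and 73.8 ± 56.9 TP5M in flower, a log2 difference of −1.80 ± 0.72 (adjusted p = 0.233). M3181-3p had 179, 40.8 and 59.4 TP5M in pods of weeks 1, 2 and 3, within the range of flowers at week 1 and below it at weeks 2 and 3.

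Between seed and pod, 2 of the 15 were called, against 16.3% of all sequences (24 higher, 4.03%, and 73 lower, 12.3%; 45 and 45 with TMM). M5274-3p had 10.8, 26.1 and 67.0 TP5M in seeds of weeks 6, 8 and 10, against 0.84, 0 and 1.02 TP5M in pods of weeks 1, 2 and 3. The groups did not overlap, and the pod values are 1 read each at most. The log2 difference was 2.55 ± 0.71 (adjusted p = 0.0172). The call was lost without the week 10 seed (adjusted p = 0.103), without the week 2 pod (0.0644) and with the term for the 6 libraries, 3 of which are the pods (0.15).

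M1230-3p had 1.80, 1.19 and 0 TP5M in seeds of weeks 6, 8 and 10, against 21.1, 12.4 and 7.17 TP5M in pods of weeks 1, 2 and 3. The groups did not overlap, and seeds had at most 2 reads. It averaged 0.997 ± 0.915 in seed and 13.6 ± 7.04 TP5M in pod, a log2 difference of −1.57 ± 0.40 (adjusted p = 0.00987; 0.0539 without the week 10 seed, 0.0558 without the week 1 pod and 0.101 with the term for the 6 libraries). Groups of 5 of the 15 did not overlap, against 50.1% of all. TMM called 5 of the 15, 4 higher and 1 lower, the further ones being M2476-3p, M1870-5p and M4304-5p.

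Between seed and leaf, 3 of the 15 were called and all 3 were higher in seed, against 16.3% of all sequences (40 higher, 6.72%, and 57 lower, 9.58%; 68 and 55 with TMM). The median log2 difference was 0.63 for the 15 and −0.38 for all 595. M3181-3p had 75.6, 620 and 181 TP5M in seeds of weeks 6, 8 and 10, above the highest leaf with 73.6 TP5M by a narrow margin at week 6. It averaged 292 ± 289 in seed and 21.3 ± 28.0 TP5M in leaf, a log2 difference of 3.63 ± 0.79 (adjusted p = 0.0032). It was called under every alternative tried.

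M2476-3p (chr7:6978449-6978758, plus strand) had 114, 60.5 and 68.1 TP5M in seeds of weeks 6, 8 and 10, against 3.09, 23.3 and 58.5 TP5M as lowest, median and highest in leaf. The groups did not overlap. Its means were 80.9 ± 29.1 in seed and 24.7 ± 22.4 TP5M in leaf, a log2 difference of 1.91 ± 0.56 (adjusted p = 0.0275). The call was lost with edgeR (0.0728), without the old leaf of the trefoil stage (0.0527), without each seed library in turn (0.0594 to 0.126) and with the term for the 6 libraries (0.148). Among organs not tested, M2476-3p had 89.3 TP5M in the root and 3.16 to 33.1 TP5M in stems, cotyledons and the leaf bud. Its neighbour M2475-3p averaged 12.1 ± 10.0 in seed and 8.91 ± 14.2 TP5M in leaf and was not called (adjusted p = 0.464).

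M1870-5p (chr5:33636591-33636673, plus strand) had 20.7, 20.2 and 23.4 TP5M in seeds of weeks 6, 8 and 10, against 1.03, 5.68 and 22.1 TP5M as lowest, median and highest in leaf. The new leaf of the trefoil stage lay among the seeds, so the groups overlapped. The log2 difference was 1.27 ± 0.42 (adjusted p = 0.0469) and the call held in 4 of 22 alternatives. Among organs not tested, M1870-5p had 25.4 TP5M in the germination stem, its highest level, 19.1 TP5M in the trefoil stage stem and 21.1 TP5M in the old cotyledon. The germination cotyledon had 2.97 TP5M, the root 11.2 TP5M and the leaf bud 2.76 TP5M. Groups of 2 of the 15 did not overlap, against 16.1% of all.

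**Figure D5:**
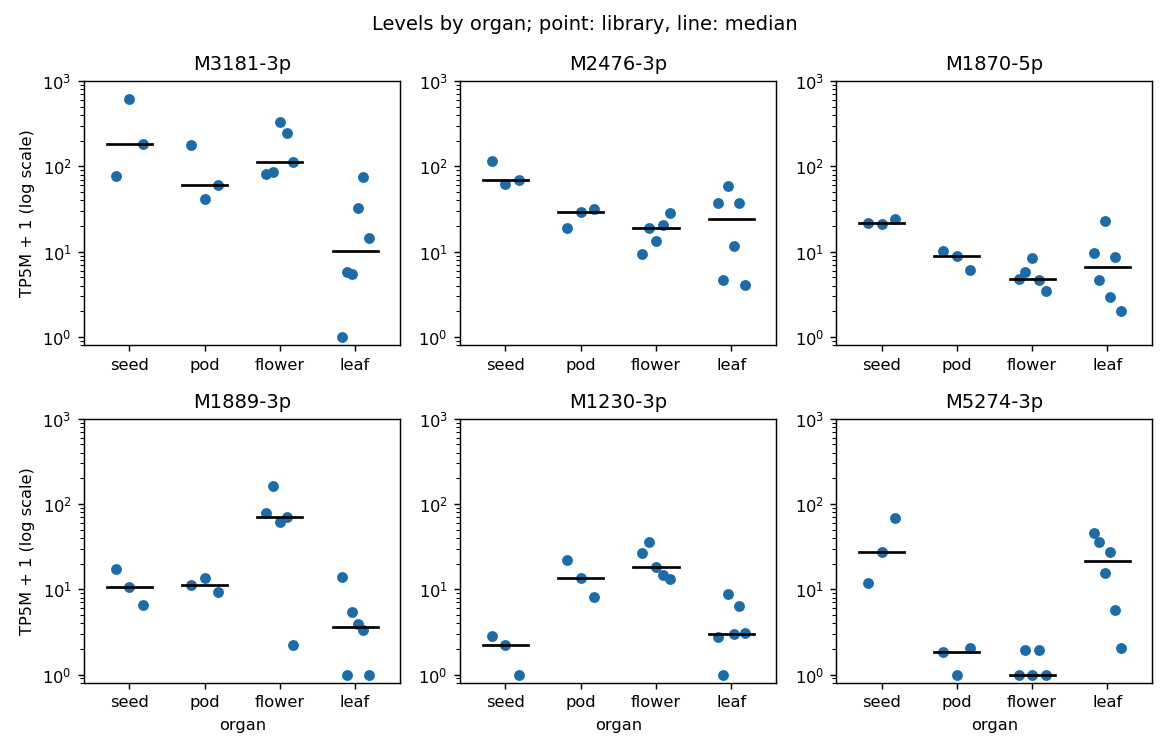
Levels of the 6 sequences called among the 4 organs, on a log axis of TP5M + 1; each point is a library (seed n = 3, pod n = 3, flower n = 5, leaf n = 6; stages from early to late, then flowers of a different date) and the line is the median. M5274-3p is at 0 to 1.02 TP5M in pods and flowers, and M2476-3p and M1870-5p have their highest medians of these 4 organs in seeds.

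The filter on the mean removed nearly all 24 nt sequences, so the same fit was also made on all 2780 sequences above 0 in any library. It called 18 of the 92 in seed minus leaf, all of them higher in seed (6 others were lower at an unadjusted p below 0.05), against 6.62% of all sequences higher and 1.76% lower. Of the 62 sequences of 24 nt 17 were higher (27.4%), and of the 30 of 23 nt 1. Since the limit of 5 TP5M picked sequences that were high in some library, often a seed, the count over the 92 is a description. Most of the 17 reached the limit in seed libraries alone, so their calls follow in part from the selection. The 418 unnamed 24 nt sequences below the limit were picked without a high level anywhere, and 57 of them (13.6%) were higher and 0 lower in seed than leaf by limma (1 lower at an unadjusted p below 0.05). They were set apart by the same limit, and their values, all below 5 TP5M, rest on a few reads at most. Over all levels the share was 3.11% for unnamed 21 nt (29 of 932) and 6.82% for unnamed 22 nt (54 of 792).

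The 17 calls, and their counts under other settings, carry the selection on level. They were 11 without the week 6 seed, 14 without the week 8 seed and 24 without the week 10 seed, and 13 to 22 without a leaf. They were 12 with the term for the 6 libraries and 32 with TMM. For the 418 scarcer sequences the corresponding counts were 55, 38, 80, 39 to 43, 31 and 133. These settings were added after the values had been seen. The miR162, miR168 and miR403 sequences, which target DCL1, AGO1 and AGO2 in Arabidopsis and so stand for the small RNA machinery, were 5 in number among the 595. Of these, 0 were called in flower minus leaf (1 with an unadjusted p below 0.05), pod minus flower or seed minus pod (0 each), and 1, miR403a, was lower in seed than leaf by limma (log2 difference −1.49, adjusted p = 0.0466). edgeR called 0 of the 5 in each of these comparisons.

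Examples among the 17, chosen after their values were seen, show levels of a few reads. M7896-3p had 4.50, 9.49 and 6.70 TP5M in seeds of weeks 6, 8 and 10, against 0 in 5 leaves and 0.77 TP5M in the new leaf at bud differentiation. M3164-5p had 6.30, 4.74 and 4.46 TP5M in seeds and 0 to 1.10 TP5M in leaves, with up to 4.87 TP5M in flowers. The limit was reached in the week 6 seed alone, so its level in seeds had to be high. M4195-3p had 8.10, 7.11 and 8.93 TP5M in seeds and 0 to 3.10 TP5M in leaves, and its highest level, 9.89 TP5M, in flowers of a different date. M2540-5p and M1992-5p were listed at 0 in all 6 leaves and all 3 pods.

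In seed minus pod, the fit without the filter called 14 of the 92, 10 higher and 4 lower in seed, against 3.85% of all sequences higher and 3.53% lower. This count is a description too, because several of the 10 reached 5 TP5M in a seed library alone. Those lower in seed included M6622-5p, listed at 0 in all seeds and at 3.38, 1.77 and 6.15 TP5M in pods of weeks 1, 2 and 3. M5934-3p was also lower, listed at 0 in all seeds and all flowers and at 3.38 to 8.19 TP5M in pods. It was above 0 only within the 6 libraries of the term and the old cotyledon (9.49 TP5M), and the part of this in the call was not tested. In flower minus leaf it called 5, again a description, of which 4 were higher, against 4.53% of all sequences higher and 0.647% lower. The further one was M7767-5p, with 9.20 ± 2.72 TP5M in flower and 1.64 ± 1.33 TP5M in leaf.

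A few sequences, again named after their values were seen, had their highest levels outside seeds and pods. M7235-5p had 104 TP5M in the old cotyledon of the trefoil stage, 21.8 TP5M in the stem and 17.65 TP5M in the new leaf of that stage, and 0 in seeds. M4983-3p had 38.6 TP5M in the leaf bud and 17.0 TP5M in the flower bud, both from bud differentiation, and was listed at 0 in seeds, pods, stems, cotyledons and the root. M6754-5p had 27.8 TP5M in the senescent leaf, 10.8 TP5M in the old leaf at bud differentiation and at most 6.44 TP5M elsewhere. M1652-5p had 39.6 TP5M in flowers of day 5, 25.6 TP5M in florescence and 18.0 TP5M in the bud before flowering, but 2.83 and 2.47 TP5M in the other flower libraries. It also had 16.7 TP5M in the old leaf at bud differentiation, and 0 in seeds and pods.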

How the data were processed

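Small RNA libraries of 23 soybean organs and stages were sequenced once each, and the authors deposited 1 table of hairpins and mature sequences with a normalized signal per library, named TP5M per the file headers. The submitters' processing notes name BWA, with no role or version, and the genome build is not given in the sources used here. Values of up to 200 reads were whole multiples of a step for each library (100.0% of 28843 values within 0.1 read), so reads and depths, 3.63e+06 to 6.74e+06 tags, were recovered from the signal deposited by the authors. Table columns were matched to samples by the number in the sample title. Libraries of an organ then correlated at a mean of 0.833 and libraries of different organs at 0.728, against 0.762 and 0.739 for the number in brackets.

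Organs were compared with limma 3.58.1 in R 4.3.3 (1 mean per organ, all 23 libraries, log2(TP5M + 5), moderated test with a trend, Benjamini-Hochberg adjustment over sequences whose mean reached 5 TP5M, adjusted p below 0.05). limma was chosen because the table holds scaled values; edgeR 4.0.16 (quasi-likelihood) on the recovered reads, a pseudocount of 1, no filter, TMM scaling, a term for 6 libraries and leaving out each library were alternatives. The fit was tested on simulated data. Named sequences are the 10 highest by mean, those called in each contrast, the 5 highest found in a single library, those with the most loci, hairpins with both arms, the 3 on each side of the limit and the 5 highest related to a named miRNA. The sequences, lists and rules were chosen with earlier results of these data known. Figures were drawn with matplotlib, and tables handled in pandas. Gene annotation was not used here, since the build of the table is not given.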

Additional observations from a re-analysis of the deposited data

Results flagged for a closer look

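In 5 of 34 groups of 4 to 10 libraries, an end library lay far from the others of its organ. The cutoff flags about 1 in 20 groups of normally distributed replicates. Here the libraries are different stages and the groups reuse the same leaves and flowers, so that rate cannot be set against 5 of 34. New leaves accounted for 4 of the 5. The new leaf of the trefoil stage had 36.41 TP5M of M2475-3p (next leaf 12.21), 22.07 TP5M of M1870-5p (next leaf 8.72) and 17.65 TP5M of M7235-5p (next leaf 6.01). The new leaf at germination had 13.08 TP5M of M1889-3p (next leaf 4.41). Among flowers, florescence had 132.79 TP5M of M3199-5p (next flower library 42.45). All leaves but the trefoil new leaf were below the seeds for M1870-5p, whose seed minus leaf log2 difference lies between 1.10 and 1.53 when a library is left out.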

How the results depend on the processing

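No paired analysis was made. The labels give the libraries no replicate numbers, and the leaf, flower, pod and seed libraries were mostly of different stages. With no filter on low values, which tests all 92 sequences in place of 15, the sequences called were 23 among the 4 organs, 14 in seed minus pod and 18 in seed minus leaf. TMM scaling called 5 in seed minus pod and 5 in seed minus leaf, and the term for 6 libraries called 0 in seed minus pod and 1 in seed minus leaf. A limit of 10 TP5M left 31 sequences and a limit of 2 TP5M gave 418. Leaving out 1 library at a time, the calls ranged from 4 to 8 among the 4 organs, 4 to 6 in flower minus leaf, 0 to 1 in pod minus flower, 0 to 2 in seed minus pod and 1 to 4 in seed minus leaf. No direction reversed. The calls of M3181-3p in both contrasts and of M1889-3p and M1230-3p in flower minus leaf held in 22 of 22 alternatives. For the lost calls the cause was not tested, except that a fit without a library has fewer samples. At 0.742 to 1.38 TP5M a read, sequences near 5 TP5M rest on 4 to 7 reads.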
